A study of Mus musculus with 69 samples.

Results

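Open chromatin was compared between Mut43, a clone of H3.3K27R mutant ESCs, and the WT line it was derived from, by ATAC-seq. The comparison rests on 4 of the study's 69 samples, 2 libraries of WT and 2 of Mut43, and on the list of peaks deposited for each. WT was J1, a mouse ESC line of the 129S4/SvJae strain from the inner cell mass of a blastocyst. In Mut43, CRISPR-Cas9 editing had put arginine in place of lysine 27 in H3f3a and H3f3b, the 2 genes that encode the histone variant H3.3. Mut43 is 1 clone, so an effect of the mutation and a property of this clone cannot be told apart here. Both lines were grown with feeder cells and then without them for 2 passages before harvest. The labels do not say whether the 2 libraries of a line came from separate cultures, so all p-values measure only the spread between these samples, which may be technical. Peaks on chromosomes 1 to 19 were merged into 1 region wherever peaks of the 4 lists overlapped by at least 1 bp. This gave 84238 regions, and 50308 of them (59.7%) held a peak in all 4 lists.

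ATAC-seq uses the Tn5 transposase, which inserts sequencing adapters where DNA is not covered by nucleosomes. Peaks mark promoters, enhancers and insulator sites bound by transcription factors. H3.3 is placed into chromatin outside replication and is enriched at such sites. Lysine 27 can be acetylated, a mark of active enhancers and promoters, or methylated by Polycomb complexes, and arginine at this position is not a substrate for these enzymes.

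The lists held 76114 peaks in WT replicate 1, 65252 in WT replicate 2, 66654 in Mut43 replicate 1 and 63882 in Mut43 replicate 2. WT replicate 1 stood apart. Its peaks covered 32.2 Mb, against 21.9 to 24.6 Mb in the other lists, and its genome-wide background was 3.36 reads, against 2.01 to 2.28 reads. It alone contributed 8430 of the 14330 regions found in a single list. The main counts are therefore also given without it. The number of reads over each peak's summit was not listed, but could be recovered as a whole number from the fold enrichment and the -log10 p, and the -log10 p computed from it matched the listed one within 0.001 for 100% of the peaks. These summit reads had a median of 46, 37, 38 and 36 per peak in the order above. Of 28 regions at the promoters of 20 pluripotency genes, 24 were held by all 4 lists, among them those of Pou5f1, Nanog and Sox2. Of all regions within 1000 bp of a coding TSS, 13517 of 16842 were, so this count says little about the type of the cells.

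Most WT regions kept their peak in Mut43. Both WT lists held a peak in 60305 regions, and 83.4% of these had one in both Mut43 lists as well. Both Mut43 lists held 55568 regions, of which 90.5% were in both WT lists. WT-only regions, with a peak in both WT lists and in neither Mut43 list, numbered 4557, or 7.56% of the WT regions. Mut43-only regions numbered 1519, or 2.73% of the Mut43 regions. With regions merged anew from the other lists, leaving out WT replicate 1 gave a kept share of 79.7% and 6662 WT-only regions. A line with 1 list left was judged by that list alone, and this looser rule can itself raise such counts. Leaving out WT replicate 2 gave 13064 WT-only regions and leaving out Mut43 replicate 1 gave 7936. Mut43-only regions numbered 4950 without WT replicate 1, 3357 without Mut43 replicate 1 and 4143 without Mut43 replicate 2. When the same number of peaks was taken from every list, these counts were 3492 and 2110. A missing peak says that the signal did not reach the caller's threshold, not that it was absent. The Jaccard index, the bases shared by 2 lists over the bases in either, was 0.693 for the WT pair and 0.719 for the Mut43 pair. It was 0.610 to 0.684 for the 4 pairs of a WT with a Mut43 list. Lists of different lines were thus less alike than lists of 1 line by 0.0538 on average, and this difference ranged from 0.0286 to 0.0914 when 1 library was left out. An exact permutation test over 4 libraries cannot give a two-sided p under 0.33, and none is given for this difference.

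The following regions show what the strongest differences looked like. The sequences are the 200 bp around the summit on the plus strand of mm10, taken from GRCm38, which is the same build. The first pair had more reads in Mut43, the second pair had fewer, and the last pair are the strongest WT-only and the strongest Mut43-only region. Capitals mark the motifs that were searched for, as given with the motif counts, and CCAATGG.
Gm5 (nearest TSS), chr5:150443985-150444184: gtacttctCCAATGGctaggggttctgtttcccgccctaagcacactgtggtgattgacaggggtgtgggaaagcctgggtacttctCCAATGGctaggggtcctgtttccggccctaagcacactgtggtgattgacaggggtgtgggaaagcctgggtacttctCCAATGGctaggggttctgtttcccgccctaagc
Gal3st1, chr11:3992421-3992620: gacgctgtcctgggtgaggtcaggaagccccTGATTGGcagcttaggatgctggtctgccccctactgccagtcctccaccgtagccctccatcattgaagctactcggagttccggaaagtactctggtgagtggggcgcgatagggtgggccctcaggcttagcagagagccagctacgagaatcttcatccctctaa
Gm41318, chr15:49229158-49229357: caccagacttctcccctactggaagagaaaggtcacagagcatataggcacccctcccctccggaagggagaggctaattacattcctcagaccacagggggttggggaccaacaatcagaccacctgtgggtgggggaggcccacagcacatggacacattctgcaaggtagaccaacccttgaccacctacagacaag
Aff3, chr1:38606815-38607014: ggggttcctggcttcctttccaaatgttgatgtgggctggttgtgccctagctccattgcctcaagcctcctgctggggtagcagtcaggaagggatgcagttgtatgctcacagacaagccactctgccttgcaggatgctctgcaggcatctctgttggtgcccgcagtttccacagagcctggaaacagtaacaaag
Gm43356, chr3:137051646-137051845: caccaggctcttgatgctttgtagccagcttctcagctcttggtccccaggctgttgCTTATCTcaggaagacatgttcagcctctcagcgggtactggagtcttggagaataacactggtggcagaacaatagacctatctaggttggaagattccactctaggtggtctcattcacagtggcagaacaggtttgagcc
Gm31305, chr3:97727886-97728085: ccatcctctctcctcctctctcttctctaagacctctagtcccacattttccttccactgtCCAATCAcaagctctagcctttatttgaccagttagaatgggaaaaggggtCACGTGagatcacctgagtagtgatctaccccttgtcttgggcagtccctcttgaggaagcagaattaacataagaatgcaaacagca
The Gm5 sequence is a tandem repeat with a period of 79 bp, at which 96.7% of its bases are identical, and each copy carries CCAATGG. Reads in such a repeat can come from any of its copies. The Gal3st1 sequence holds CCAATCA on the minus strand at base 32, and the Gm31305 sequence holds it at base 62 and an E-box at base 113. The Gm43356 sequence holds a GATA motif at base 58. None of the motifs was found in the Gm41318 and Aff3 sequences.

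The height of the peaks was compared in the 50308 regions held by all 4 lists. The fold enrichment over background was first ranked within each list as a percentile. Percentiles correlated with r = 0.915 between the WT libraries and 0.902 between the Mut43 libraries, and with 0.863 to 0.880 across lines. No region passed an adjusted p-value of 0.05 in limma with Benjamini-Hochberg adjustment, higher (0% of those tested) or lower (0%), and the smallest adjusted p-value was 0.326. At an unadjusted p under 0.05 there were 5988 regions. Both Mut43 percentiles lay above both WT percentiles in 23.5% of regions and below them in 20.5%. Ranked as normal scores, the same test called 36 regions higher and 147 lower, and on quantile-normalized log2 fold enrichment 43 and 159.

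Summit reads were then tested, a choice made after the percentiles had been seen. Each library was centred on its median over the common regions, so values are relative to the middle region of a library. The limma test called 1931 regions higher in Mut43 (3.84% of those tested) and 1703 lower (3.39%), with 10261 at an unadjusted p under 0.05. Its p-values rest mostly on a spread pooled over all regions, with 2228 prior degrees of freedom. The differences were small. The median size among called regions was 1.43-fold, and 8 regions rose and 9 fell by more than 2-fold. Leaving out WT replicate 1, with regions merged anew from the other 3 lists, gave 431 higher and 162 lower, and leaving out WT replicate 2 gave 1641 and 482. Without Mut43 replicate 1 there were 1810 and 1180, and without Mut43 replicate 2 there were 1032 and 1019. With the 50308 regions kept as they were, the counts were 902 and 741 without WT replicate 1, 1122 and 383 without WT replicate 2, 1304 and 1255 without Mut43 replicate 1 and 759 and 1109 without Mut43 replicate 2. Values of single regions and of groups of regions without a library are from these kept regions. When libraries were scaled by their genome-wide background instead, 161 regions were higher and 32 lower. EdgeR's quasi-likelihood test on the same reads called 16 higher and 8 lower, and all 24 were also called by limma. The height of 2 replicates differed less than independent reads would by counting alone, with variance ratios of 0.418 in WT and 0.399 in Mut43 and of 0.712 to 0.793 across lines, and edgeR allows no spread below counting error.

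**Figure D1:**
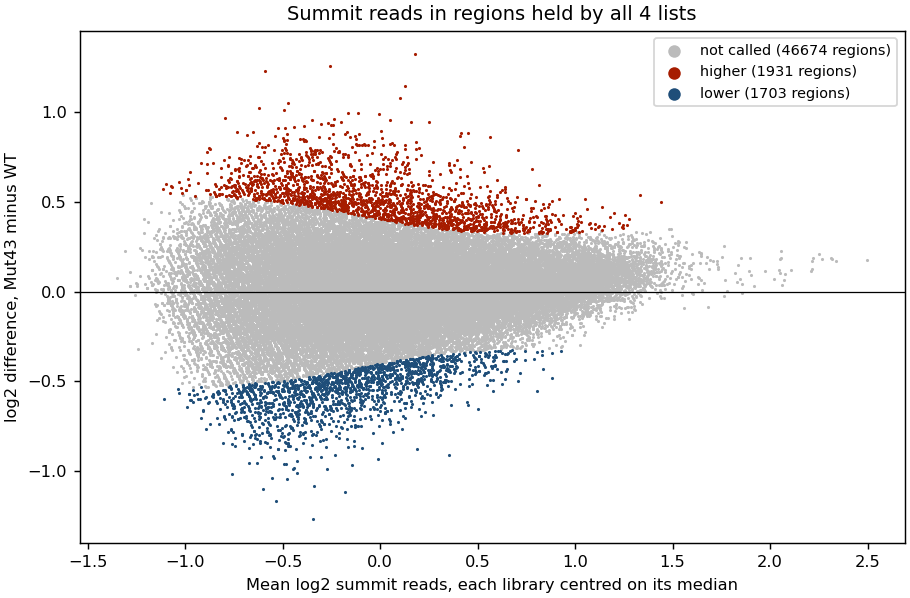
Difference in log2 summit reads between Mut43 and WT (vertical axis) against the mean of the 4 libraries, each centred on its median (horizontal axis), with 1 point per region held by all 4 lists. The 1931 regions called higher and the 1703 called lower lie on both sides of 0, and 17 of them differ by more than 2-fold.

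The region with the largest rise lay in an intron of Fry, a gene for a microtubule-associated protein, at chr5:150443941-150444431, and its nearest TSS was that of Gm5, 57.7 kb away. It held 42 and 28 reads in WT and 81 and 66 in Mut43. The difference was 1.32 ± 0.126 (SE) on the log2 scale after centring, with an adjusted p of 3.35e-20 in limma and 6.42e-06 in edgeR's test. This is the tandem repeat printed above. A further region in the same intron, at chr5:150444929-150445763, held 40 and 31 reads in WT and 70 and 63 in Mut43. Both Mut43 libraries were above both WT libraries at each of these regions, which the choice of leading regions required.

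Gal3st1 encodes the sulfotransferase that makes sulfatide. A region in its intron at chr11:3992311-3992903 held 32 and 21 reads in WT and 56 and 50 in Mut43. The log2 difference was 1.26 ± 0.156 (SE), with an adjusted p of 1.77e-11 in limma and 0.00291 in edgeR's test. The Gal3st1 promoter held 66 and 34 reads in WT and 57 and 53 in Mut43, so the lines overlapped before centring. It was called higher with a log2 difference of 0.44 (limma adjusted p 0.0123), and the call was lost without WT replicate 2, where the difference was 0.19. Another sulfotransferase gene, Sult6b1, held an intronic region at chr17:78895081-78895598 with 24 and 18 reads in WT and 36 and 48 in Mut43, a log2 difference of 1.23. The mRNA of both genes was higher in Mut43, with log2 fold changes of 1.61 for Gal3st1 and 1.86 for Sult6b1. At the other tested genes nearest to the 10 regions it was lower for Zfand4 (-1.13, edgeR adjusted p 0.0195), whose region had a log2 difference of 1.08, and 0.18 for Fbxl20 (adjusted p 0.066). Of the 10 regions with the largest rise, 4 lay on chromosome 11, and Fbxl20, which encodes an F-box protein of ubiquitin ligases, was among their genes. Its intronic region held 32 and 18 reads in WT and 44 and 41 in Mut43, with an adjusted p of 8.09e-07 in limma and 0.106 in edgeR's test. All 10 had a peak in both lists of Mut18, the other H3.3K27R clone, as did 94.4% of all regions held by all 4 lists.

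The largest fall was at an intergenic region, chr15:49228698-49229510, 34.4 kb from the TSS of the non-coding gene Gm41318. It held 66 and 52 reads in WT and 24 and 18 in Mut43. The log2 difference was -1.27 ± 0.162 (SE), with an adjusted p of 6.64e-11 in limma and 0.00306 in edgeR's test. Aff3, which encodes a nuclear regulator of transcription, held an intronic region at chr1:38606790-38607132 with 57 and 43 reads in WT and 17 and 21 in Mut43, a log2 difference of -1.16. Every Mut43 value was less than every WT value at both, which the choice of leading regions also required. The Aff3 mRNA had a log2 fold change of -0.17 with an edgeR adjusted p of 0.151. Colec12 encodes a scavenger receptor, and a region in its intron held 69 and 44 reads in WT and 29 and 17 in Mut43 (log2 difference -1.08). Its mRNA was lower, with a log2 fold change of -2.37. The other tested genes nearest to the 10 regions were Tox2 (-1.11, edgeR adjusted p 0.0946) and Slc25a24 (-0.69, adjusted p 3.24e-06, under 2-fold). The other regions of the 10 lay near Hsd17b3, a gene of testosterone synthesis, Itgbl1, Tox2, Gm15669, Slc25a24, Gm26972 and, in an intron of the receptor gene Erbb4, Gm16076. Their log2 differences were -1.12 to -0.99, with adjusted p from 0.0127 to 0.128 in edgeR's test. None of these 10 lay within 1 kb of a coding TSS or on chromosome 11. The region near Itgbl1 had no peak in either Mut18 list, and the others of the 10 had 1 in both.

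**Figure D2:**
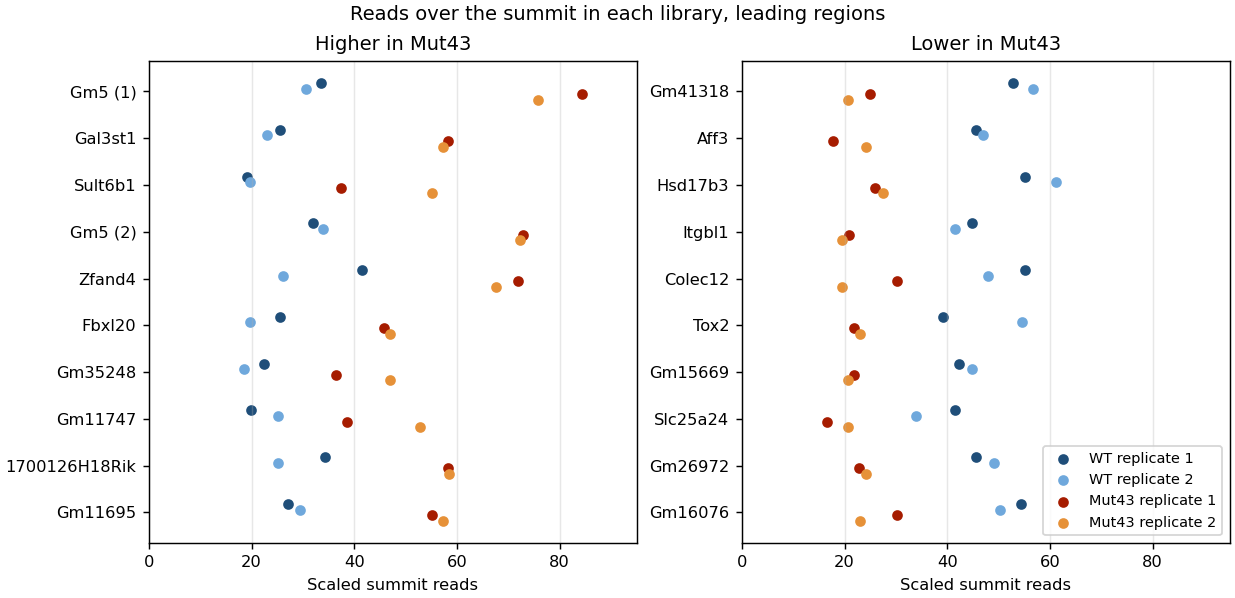
Summit reads, scaled to equal library medians (horizontal axis), in the 10 regions with the largest rise and the 10 with the largest fall, named by the nearest TSS (vertical axis), with 1 point per library. The 20 regions were picked among those with both Mut43 points on 1 side of both WT points, so this separation comes from the choice. At Aff3 the scaled values are 45.5 and 46.9 in WT and 17.7 and 24.1 in Mut43.

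The strongest WT-only region, by the lower of its ranks in the 2 WT lists, was at chr3:137051623-137051875, 96.5 kb from Gm43356, with 56 and 42 reads. Both Mut18 lists held a peak there, with 31 and 24 reads. The next ones were near Prl4a1, a gene of the prolactin family, with 48 and 39 reads, and Calcr, the calcitonin receptor gene, with 56 and 36. The Calcr region lay 106 kb from the TSS, in a window that repeats covered to 100%. The mRNA of Calcr was lower in Mut43 with a log2 fold change of -3.08. The other tested gene nearest to the 10 strongest WT-only regions, D3Ertd751e, had 0.08 (edgeR adjusted p 0.581). The strongest Mut43-only region, at chr3:97727860-97728111 in an intron of Pde4dip, held 39 and 33 reads in Mut43, and 25 and 36 in Mut18. Other leading ones lay in an intron of Gm884 on chromosome 11 (39 and 30 reads), near Lpgat1 (38 and 30 reads) and near the LIM homeobox gene Isl1 (33 and 29 reads), and these regions and that in Pde4dip were the 4 of the 10 strongest that held CCAATCA within 100 bp of the summit. The other 6, near Gm9908, A430048G15Rik, 4930471E15Rik, Dact1, Gm16237 and Rad51b, held none of the motifs searched. Of the genes nearest to these 10, Lpgat1 had lower mRNA in Mut43 (log2 fold change -0.66, edgeR adjusted p 2.13e-06). The mRNA change was 0.41 for Dact1 (adjusted p 0.0141) and -0.28 for Rad51b (adjusted p 0.268). Across all WT-only regions, 19.5% and 29.7% held a peak in the Mut18 lists and 61.2% held one in neither. Across the Mut43-only regions the shares were 52.6% and 69.8%, and 20.5% had a peak in neither Mut18 list. In the regions held by all 4 lists they were 95.6% and 97.9%.

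WT-only and Mut43-only regions were spread over the genome. In windows of 1 Mb, the most WT-only regions were 9. The window at 133 to 134 Mb of chromosome 4 held them among 97 regions of both WT lists. That at 19 to 20 Mb of chromosome 7, which holds Apoe and Bcl3, held them among 102. Over the genome 7.56% of the regions of both WT lists were WT-only, so windows rich in regions can lead by their size alone. The next 3 windows, on chromosomes 16, 14 and 6, held 8 each, among 35, 29 and 37. The most Mut43-only regions were 10, at 72 to 73 Mb of chromosome 11, a window with 22 coding genes that include Xaf1 and Pitpnm3, and no WT-only region was found there. They stood among 58 regions of both Mut43 lists. A window of chromosome 3 held 9 among 80, and a window of chromosome 5 held 6 among 43. Windows of chromosome 11 at 86 to 87 and 79 to 80 Mb held 7 each, among 38 and 55. Over the genome 2.73% of the regions of both Mut43 lists were Mut43-only. Of 35 windows with at least 5 Mut43-only regions, 20 were on chromosome 11. Of 157 windows with at least 5 WT-only regions, 2 were.

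Chromosome 11 stood apart as a whole. Its 4056 common regions had a median log2 difference of 0.22, or 1.16-fold, while the medians of the other 18 autosomes lay between -0.03 and 0.04. On chromosome 11, 742 regions (18.3%) were called higher and 12 (0.296%) lower. Elsewhere 1189 were higher and 1691 lower. The median of centred log2 summit reads on chromosome 11 was 0.05 and 0.07 in the WT libraries and 0.27 and 0.30 in the Mut43 libraries, so the lines did not overlap. The exact permutation test over the 4 libraries gave a two-sided p of 0.33, the smallest it can give. Every one of the 13 windows of 10 Mb along the chromosome had a positive median, from 0.11 to 0.24. Mut43-only regions made up 5.74% of the chromosome's Mut43 regions, against 1.69% to 2.89% on other autosomes, and 91.2% of its WT regions were kept, against 80.1% to 85.8%. In each list, chromosome 11 held 7.40% and 7.43% of the peaks in WT and 8.58% and 8.59% in Mut43, and it held 8.54% and 8.59% in Mut18.

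The local background rose on the same chromosome. At its common regions the background around a peak was 2.21 and 2.34 times the genome-wide background in WT and 2.82 and 2.86 times in Mut43. The percentile of fold enrichment, which divides by that background, had a median difference of -0.73 there, against 0.14 to 1.08 on other autosomes. The median mRNA log2 fold change of genes on chromosome 11 was 0.38, against -0.08 to 0.07 elsewhere. DNA copy number was not measured here, and its part in these values was not tested. With chromosome 11 left out of the fit, 1377 regions were called higher and 1123 lower. Without WT replicate 1, 324 regions of the chromosome were higher and 7 lower.

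**Figure D3:**
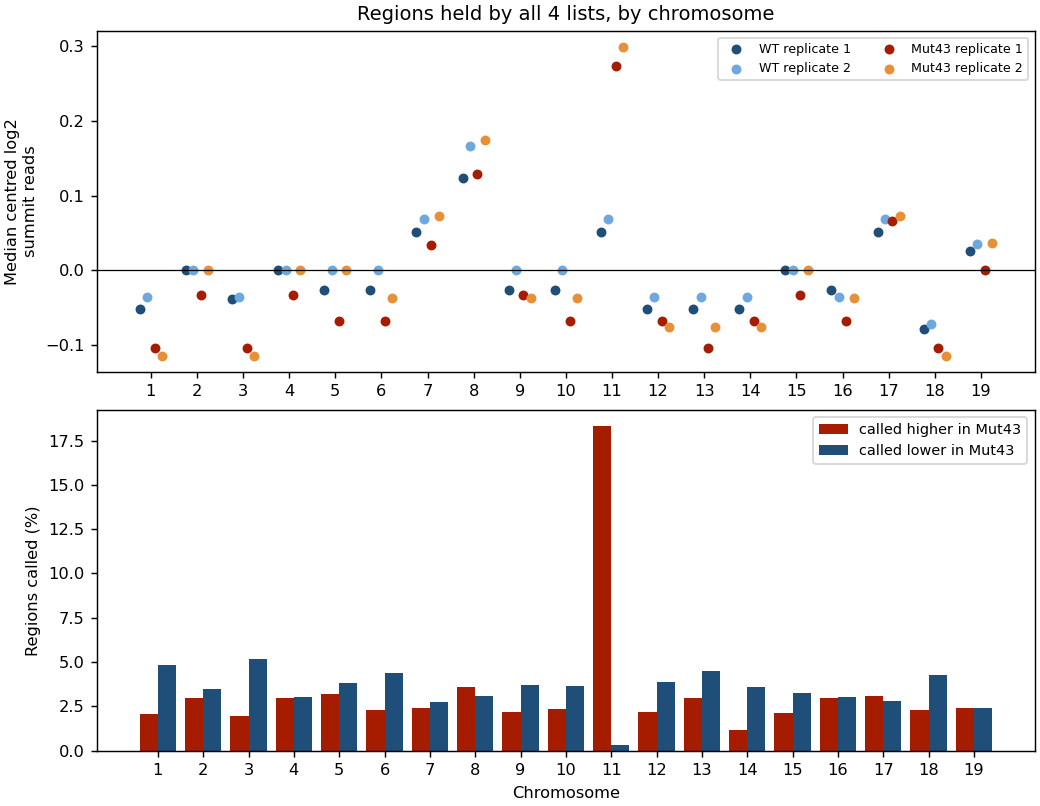
Upper panel, median of log2 summit reads centred per library (vertical axis) in the common regions of each autosome, with 1 point per library. Lower panel, percent of these regions called higher or lower in Mut43. On chromosome 11 the Mut43 points lie at 0.27 and 0.30, above both WT points, and 18.3% of regions were called higher.

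Promoters kept their peaks more often than other regions. Of the regions within 1000 bp of a coding TSS, 91.2% of those in both WT lists had a peak in both Mut43 lists, against 80.9% of distal regions. Proximal common regions were also higher, with median summit reads of 75 and 58 in WT and 58 and 54 in Mut43. Distal ones had 50, 37, 39 and 36 in the same order. The part of height in the kept shares was not tested. The difference in kept shares was 10.3 percentage points, with a range of 7.15 to 16.7 when 1 library was left out. WT-only regions numbered 576 proximal and 3981 distal, and Mut43-only regions 67 and 1452. Of the proximal WT-only regions 43.6% lay within 1 kb of a region held by all 4 lists, against 7.64% of the distal ones. The median percentile of fold enrichment was lower at proximal than at distal regions, with proximal minus distal values of -5.74 and -2.05 in WT and -1.84 and -0.785 in Mut43. This gap did not overlap between lines but differed by only 2.58, with an exact two-sided permutation p of 0.33, the smallest possible, and without WT replicate 1 it differed by 0.943.

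In summit reads, 154 proximal regions were called higher and 393 lower of 13517, and 1777 distal regions were higher and 1310 lower of 36791. This balance moved with base composition. Proximal regions had a median GC content of 65% and distal ones of 54.5%, and in the regions with a GC content of 64% to 87.5% 93 were higher and 551 lower. The Spearman correlation between the difference and GC content across regions was -0.184 (n = 50308, regions share libraries). With the trend on GC content removed, 298 proximal regions were higher and 178 lower, the opposite balance, and 1183 distal ones were higher and 1453 lower. That removal kept 1245 of the higher and 1312 of the lower calls. No direction for promoters as a class can therefore be given.

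The promoters that were called at genes whose mRNA changed were called in the direction of the mRNA. The mRNA data are counts from 2 libraries each of WT, Mut18 and Mut43, with 14992756 to 15143998 counts per library. EdgeR called 491 genes higher in Mut43 (3.49% of 14061 tested) and 957 lower (6.81%), at an adjusted p under 0.05 and more than 2-fold. A promoter region held by all 4 lists was found for 11305 genes. Of the 241 such genes with higher mRNA, 24 had a promoter called higher and 0 one called lower, and the median log2 difference of their promoters was 0.12. Of the 655 genes with lower mRNA, 0 had a promoter called higher and 42 one called lower, with a median of -0.13. Of the 10409 other genes, 79 promoters were higher and 264 lower, with a median of 0.02. With the GC trend removed the counts were 30 and 0, 1 and 20, and 233 and 108 in the same order. Without WT ATAC replicate 1 they were 17 and 1, 0 and 20, and 38 and 141. Off chromosome 11 they were 10 and 0, 0 and 41, and 22 and 263. The Spearman correlation between both readouts was 0.316 across these genes, which are not independent replicates.

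**Figure D4:**
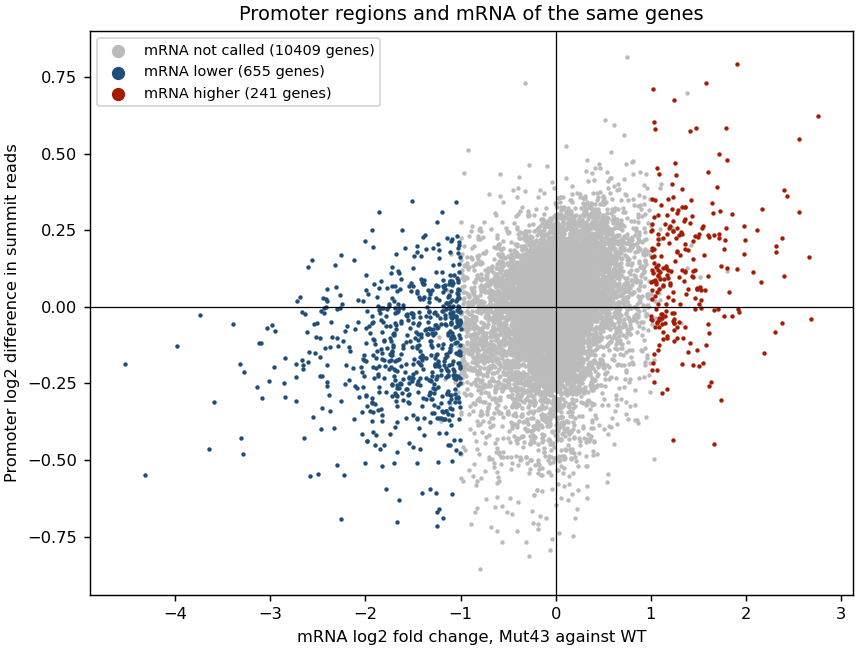
Log2 difference in promoter summit reads (vertical axis) against mRNA log2 fold change (horizontal axis), Mut43 against WT, with 1 point per gene. The 241 genes with higher mRNA have a promoter median of 0.12 and the 655 with lower mRNA one of -0.13.

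Among the genes with both readouts higher, Xaf1, an interferon-induced gene, had promoter reads of 48 and 33 in WT and 62 and 56 in Mut43 (log2 difference 0.79 ± 0.129 SE). Its mRNA rose from 84.9 and 78.4 normalized counts to 308 and 304. Inpp5d encodes the lipid phosphatase SHIP1, and its promoter reads went from 50 and 30 to 57 and 53 (log2 difference 0.73) while its mRNA rose from 393 and 387 to 1150 and 1185 normalized counts. Slc51a, Hap1, Sult5a1, Tbx21, Hormad2 and Zrsr1 belonged to the same group. Of these 24 genes, 14 lay on chromosome 11, Xaf1, Hap1, Tbx21, Hormad2 and Zrsr1 among them.

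Among the genes with both readouts lower, the integrin gene Itga1 had promoter reads of 66 and 47 in WT and 29 and 29 in Mut43 (log2 difference -0.71 ± 0.148 SE), and its mRNA fell from 76.2 and 47.0 to 32.6 and 19.3 normalized counts. Rasef encodes a GTPase with EF hands, and its promoter held 62 and 33 reads in WT and 22 and 26 in Mut43 while its mRNA fell from 115 and 95.1 to 18.3 and 25.4. The group also held the transcription factor genes Zeb2 and Satb1, the chromatin of whose promoters fell by 0.46 and 0.48 on the log2 scale, Map2, which encodes a neuronal microtubule protein, and Met, the receptor of hepatocyte growth factor. The promoter calls of Zeb2, Satb1, Map2 and Met were lost when the GC trend was removed, and those of Rasef, Zeb2, Satb1 and Met without WT replicate 1, at differences of -0.46, -0.57, -0.51 and -0.59.

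Peaks found in only 1 line were counted at the same genes. Of the genes with lower mRNA, 51 had a WT-only promoter region (5.86%), against 3.26% of genes with no mRNA call and 3.08% of genes with higher mRNA. Of the genes with higher mRNA, 8 had a Mut43-only promoter region (1.76%), against 0.320% and, among genes with lower mRNA, 0.115%. Off chromosome 11 these shares were 1.69% (6 of 355 genes), 0.265% and 0%. Without WT replicate 1 the WT-only shares were 7.12%, 3.96% and 3.74%, and the Mut43-only shares 4.41%, 1.53% and 1.26%, in the same orders. There WT replicate 2 alone stood for WT, a looser rule. Gpx2, a glutathione peroxidase gene, had such a region at chr12:76795391-76795595 with 30 and 25 reads, and its mRNA rose from 56.6 and 56.8 normalized counts in WT to 382 and 397 in Mut43. Ifi35, an interferon-induced gene of chromosome 11, had one with 51 and 53 reads over a local background of 15.3 and 14.3 reads. Its fold enrichment was among the lowest, at percentiles 0.479 and 0.914 of the 2 Mut43 lists. The Ifi35 mRNA rose from 47.8 and 69.6 to 209 and 259. The others were at the cytokine genes Osm, also on chromosome 11, and Il34, at Zbtb32, which encodes a transcriptional repressor, and at Gpx6, Arl14epl and Gm11413. At WT-only promoters, the imprinted gene Grb10, an adaptor of insulin receptor signalling, held 32 and 26 reads at chr11:12037260-12037591, and its mRNA fell from 4163 and 4065 normalized counts to 226 and 238. Peg13, an imprinted non-coding RNA, held 42 and 18 reads in WT, and its mRNA fell from 72.3 and 62.7 to 3.05 and 10.1. Cdh11, Wnt4, Sall2, Meis2, Sox1, Twist1 and Dlk1, genes of adhesion and development, were also among the 51.

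Common regions within 50 kb of a TSS but outside the gene's own promoter were counted next, and a region near several genes was counted for each. Over all distal common regions, each counted once, 3.56% were called lower and 4.83% higher. Near genes with lower mRNA 4.79% were called lower, against 1.29% near genes with no mRNA call. Near genes with higher mRNA 9.31% were called higher, against 4.71%, and off chromosome 11 the shares were 3.98% and 2.79%. Of all common regions off chromosome 11, each counted once, 2.57% were called higher. Without WT replicate 1 the lower shares were 1.96% and 0.611% and the higher shares 4.33% and 2.31%. Of the 10 genes with the highest mRNA fold changes, taken from genes that averaged 50 or more normalized counts, Lgals9 and Myo1g had no promoter region, Tex40 was not matched to the annotation, Gpx2 had a Mut43-only one, Zbp1 had one that WT replicate 1, WT replicate 2 and Mut43 replicate 2 held, and Hormad2 had one called higher. Stra8, Grin1, Pla2g4e and Ddx60 had common promoter regions that were not called. Of the 10 with the lowest, Rian was called lower, Grb10 was WT-only, Col15a1 and Car3 were not called, Cd36 had a region in 2 of the 4 lists, Fabp4, Mirg, Meg3 and Plin4 had none, and AF357359 was not matched to the annotation. Fabp4, Cd36, Col15a1, Plin4 and Car3 had their high mRNA mainly in WT replicate 1, as for Fabp4 with 1734 normalized counts against 22.5 in WT replicate 2. Markers of fibroblast feeder cells summed to 8411 and 6877 normalized counts in WT and 4088 and 3745 in Mut43. Of the 14 markers tested, 9 were lower (6.81% over all genes tested). At their promoters 13 regions were found, 7 of them held by all 4 lists, with 0 called and 1 WT-only, at Twist1, and Col3a1, Postn, Acta2, Prrx1, Dcn and Lum had none. The part of such cells in these results was not tested. In these bulk samples fewer cells of a type and less signal per cell cannot be told apart.

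Few promoter regions were called in the gene groups chosen for ESCs. Over all common proximal regions 154 were higher and 393 lower of 13517. At that share a group of this size may hold no called region, so 0 calls say little about these genes. None of the 24 common pluripotency regions was called, with a median log2 difference of 0.05 against 0.00 over all proximal regions. Nanog held 69 and 49 reads in WT and 57 and 56 in Mut43 (log2 difference 0.19, limma adjusted p 0.386), and Pou5f1 held 115 and 87 and 95 and 86 (0.08, adjusted p 0.756). The WT-only regions were at Klf4, with 70 and 34 reads, and at Tdgf1, with 67 and 47 reads, between a pair of Tdgf1 regions held by all 4 lists. The Klf4 one stood at percentile 0.815 of the list of WT replicate 2. A further Klf4 promoter region held 55 reads in WT replicate 1 and 44 in Mut43 replicate 1, and no peak in the other lists. The Klf4 mRNA had a log2 fold change of 0.34 (edgeR adjusted p 0.000122). The Nodal and Lefty list, the primed and germ layer list and the list of primitive endoderm and trophoblast held 6, 12 and 11 common regions, with 0 called and 1 WT-only region each. Of the mRNAs, 3 of 20 pluripotency genes and 1 of 6 Nodal and Lefty genes were higher and none was lower, 6 of 11 primed and germ layer genes were lower, and 1 of 11 primitive endoderm and trophoblast genes was higher and 1 lower. Of all genes tested, 3.49% were higher and 6.81% lower. Summed mRNA levels went from 84144 and 86819 normalized counts in WT to 95135 and 97494 in Mut43 for pluripotency, from 10185 and 10337 to 14519 and 14445 for Nodal and Lefty, and from 14539 and 14859 to 7906 and 7893 for the primed and germ layer genes.

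Hox genes, which pattern the body axis and are silenced by Polycomb in ESCs, had 31 promoter regions. Of these 11 were held by all 4 lists and none was called. A WT-only region was found at Hoxa4, Hoxb7, Hoxb9, Hoxc11 and Hoxd11 and a Mut43-only region at none. Of all 16842 proximal regions, 576 were WT-only and 67 Mut43-only. The median log2 difference was -0.09, and the lowest was that of Hoxd1, with 51 and 38 reads in WT and 31 and 24 in Mut43 (-0.46, limma adjusted p 0.0555). The mRNA of 16 of 22 tested Hox genes was lower, against 6.81% of all genes tested. Their summed levels were 623 and 596 normalized counts in WT and 277 and 305 in Mut43.

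Imprinted genes had 36 promoter regions, of which 21 were held by all 4 lists, 2 were called higher, 2 lower, 2 were WT-only and 1 was Mut43-only. Over all common proximal regions 154 were higher and 393 lower of 13517. Of all 16842 proximal regions, 576 were WT-only and 67 Mut43-only. Rian, a non-coding RNA of the Dlk1-Dio3 cluster, had promoter reads of 67 and 52 in WT and 35 and 34 in Mut43 (log2 difference -0.55, limma adjusted p 0.00309). Its mRNA fell from 5861 and 5634 normalized counts to 290 and 288. Igf2r, the receptor that clears IGF2, went from 64 and 46 to 41 and 29 reads (-0.43, adjusted p 0.0377). Nespas, the antisense RNA of the Gnas locus, rose from 86 and 64 to 93 and 87 reads (0.50, adjusted p 0.000688), and a Mut43-only region with 56 and 49 reads stood beside it. A further Nespas promoter region held 88 and 63 reads in WT and 56 and 57 in Mut43 (-0.17, adjusted p 0.409) and was not called. Zrsr1 rose from 65 and 48 to 75 and 68 reads (0.58, adjusted p 9.25e-05), and its mRNA rose from 274 and 260 to 554 and 547 normalized counts. The Igf2r call was lost with the GC trend removed and without WT replicate 1, WT replicate 2 or Mut43 replicate 2, at differences of -0.44 to -0.25. The mRNA of 13 of 28 imprinted genes was lower and that of 2 was higher, against 6.81% and 3.49% of all genes tested.

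The edited genes themselves kept their promoter peaks. H3f3a held 79 and 71 reads in WT and 44 and 50 in Mut43 at chr1:180813165-180814465, a log2 difference of -0.45 ± 0.116 (SE) with an adjusted p of 0.0051 in limma. Its mRNA was 10510 and 10937 normalized counts in WT against 9330 and 8436 in the clone (log2 fold change -0.27). The promoter call was lost without WT replicate 2 (-0.30), without Mut43 replicate 1 (-0.29) and in edgeR's test. H3f3b, on chromosome 11, held 109 and 93 reads in WT and 112 and 102 in Mut43 (log2 difference 0.31, adjusted p 0.0834). The point mutations are too small to be checked by these levels. Of 18 common regions at the genes that write, erase or read marks on lysine 27, 1 was called, at Ezh1, a methyltransferase gene of chromosome 11, with 83 and 70 reads in WT and 84 and 80 in Mut43 (0.33, adjusted p 0.0433). Relative to the median of its chromosome it was 0.10 and not called, and without WT replicate 1 it was 0.23 and not called. Ezh2, Ep300 and Crebbp were not called, with log2 differences of -0.03, 0.04 and, for the 2 Crebbp regions, -0.20 and -0.18. Of 10 common regions at housekeeping genes none was called. Over all common proximal regions 154 were higher and 393 lower of 13517, so few calls are no trait of these groups.

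Motifs were counted in the 200 bp around each summit, on both strands. The letters were ATGCAAAT for the POU octamer, ATTGTNATG for the core of the SOX-POU composite, CNAGNGGGC for the CTCF core, TCAAGGTCA for ESRRB, GGGTGTGGC for KLF, TGANTCA for AP-1, CATTCCA for TEAD, AGATAAG for the GATA factors, CCAATCA for NFY and CACGTG for the E-box. A match is a stretch of letters and not a bound site. CCAATCA was found in 14.2% of regions with higher summit reads, against 6.76% of the common regions, 3.29% of regions with lower reads and 6.03% of all regions. It was found in 9.87% of Mut43-only and 3.34% of WT-only regions. Off chromosome 11 its share among higher regions was 17.7%. With CCAATGG, a form added after the data had been seen, 23.0% of higher regions off chromosome 11 held 1 of the 2 forms, against 9.92% of common regions. The KLF motif showed the same order, with 3.99% of higher, 1.60% of common and 0.470% of lower regions. KLF letters were in 3.69% of Mut43-only against 0.812% of WT-only regions. ESRRB letters were rarer but in the same order, in 0.984% of higher (19 regions), 0.481% of common and 0.411% of lower regions (7). They were in 1.45% of Mut43-only against 0.417% of WT-only regions. GATA letters were in 2.33% of higher, 1.24% of common and 1.47% of lower regions, which is not that order. E-box letters were in 4.56% of higher and 2.99% of lower regions. Without WT replicate 1, CCAATCA was in 15.4% of higher and 3.51% of lower regions, KLF letters were in 3.99% and 0.270%, and TEAD letters were in 3.44% and 7.83%. The median GC content was 54% in higher, 59% in lower and 57% in common regions.

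Regions that fell held TEAD letters more often. TEAD letters were in 6.28% of regions with lower reads and 5.38% of WT-only regions, against 3.22% of common and 3.47% of higher regions. AP-1 letters did not follow this order. They were in 9.46% of WT-only and 7.11% of Mut43-only regions, but in 8.29% of higher and 7.63% of lower regions, against 6.83% of all regions. The CTCF core was in 1.76% of distal regions with lower reads, against 7.24% of distal common regions and 6.02% of distal regions with higher reads. The POU octamer and the SOX-POU core are read by OCT4 with SOX2. They were in 2.02% and 1.09% of higher regions and 3.05% and 1.17% of lower ones, against 2.43% and 0.914% of common regions. Among distal regions the POU octamer was in 2.08% of higher (95% interval 1.47% to 2.86%) and 3.82% of lower ones (2.85% to 5.00%), against 2.93% of common ones. The SOX-POU core was in 1.18%, 1.45% and 1.19% in the same order. Repeats covered more than 50% of the window in 43.1% of distal regions with lower reads, against 25.2% of distal common regions and 19.6% of distal regions with higher reads. The distal regions with lower reads lay a median of 43.0 kb from a TSS, and the higher ones 15.2 kb.

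**Figure D5:**
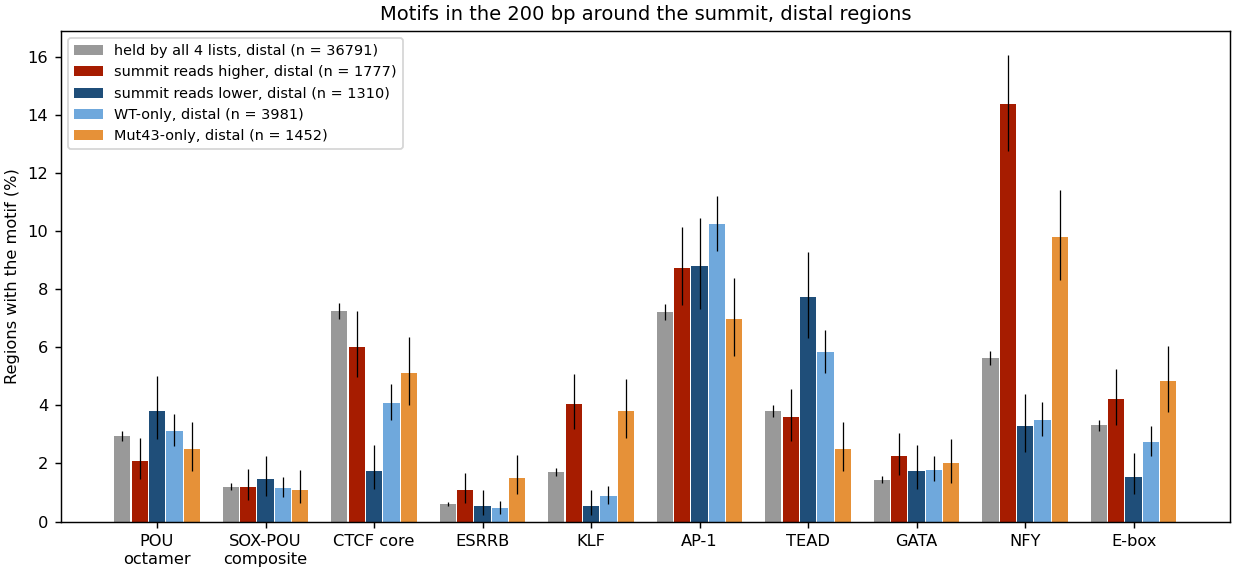
Percent of distal regions that hold each motif within the 200 bp around the summit (vertical axis), by motif (horizontal axis) and by set of regions (bars), with exact binomial 95% intervals that cover counting error only. NFY letters stand at 14.4% in distal regions with higher reads, against 5.62% of distal common regions, and the CTCF core at 1.76% in distal regions with lower reads, against 7.24%.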

How the data were processed

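ATAC-seq libraries were made from 50,000 cells with Tn5 and sequenced in pairs. Per the submitters' processing notes, Bowtie2 2.3.4.2, SAMtools, deepTools 3.3.0 and MACS2 were used with mm10. The Tn5 shift and the handling of duplicates are not given in the sources used here. The authors deposited 1 peak list per library, with a fold enrichment (ratio), -log10 p-values, -log10 q-values, all above 6, and a score. The authors also deposited raw mRNA read counts per gene.

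All lists, members and gene groups were chosen with earlier results of these data known. Regions were merged at 1 bp of overlap on 19 autosomes. Fold percentiles and log2 summit reads were tested with limma 3.58.1, and mRNA counts with edgeR 4.0.16 (quasi-likelihood, WT, Mut18 and Mut43 in 1 fit), all with Benjamini-Hochberg adjustment at 0.05, in R 4.3.3. Python 3.11.15 and scipy 1.17.1 served for the rest. Scripts were tested on simulated data. TSSs came from GENCODE vM21, and promoters are regions within 1000 bp. Intervals cover counting error only.

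The rule for named regions took the promoters of the gene groups, the 10 called regions with the largest percentile change in each direction, the 10 strongest regions of 1 line, 5 windows of 1 Mb per direction and the 10 genes with the largest mRNA change per direction at a mean of at least 50 normalized counts. As no percentile was called, the 10 leading regions by summit reads were named instead, after their values were seen. Only regions with both Mut43 libraries on 1 side of both WT libraries could be picked. The genes with both readouts called were also picked afterwards. Deviations of libraries with the same replicate number correlated at 0.029 for percentiles and 0.020 for summit reads, so the numbers did not pair the samples. Alternatives covered peak thresholds, scaling, trends on GC content and height, DESeq2 1.42.0 for mRNA, the replicate block and each library left out.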

Additional observations from a re-analysis of the deposited data

How the results depend on the processing

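Of the values recomputed for the comparisons, 99 stayed within the limits set for them and 34 moved. With equal peak numbers the proximal excess in kept WT regions was 12.8 percentage points. Percentile calls numbered 36 higher and 147 lower as normal scores, and 43 and 159 on quantile-normalized log2 fold. Summit-read calls numbered 1121 and 1041 after quantile normalization, 161 and 32 with background scaling, and 16 and 8 in edgeR, and without chromosome 11 there were 1123 lower. The cause of these changes was not tested. Without chromosome 11 each library was centred anew, on 46252 regions. Of the 1703 lower calls of the full fit, 12 were on that chromosome.

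With each library left out in turn, kept WT regions ranged from 70.7% to 89.0%, WT-only regions from 6639 to 13064, Mut43-only regions from 1928 to 4950, the Jaccard difference from 0.0286 to 0.0914 and the proximal excess from 7.15 to 16.7 points. The line with 1 list left was judged by that list alone, so its presence counts follow a looser rule than the main ones. Summit-read calls ranged from 431 to 1810 higher and from 162 to 1180 lower over regions merged anew. With the regions kept as they were, a choice made after seeing the data, they were 902 and 741 without WT replicate 1, 1122 and 383 without WT replicate 2, 1304 and 1255 without Mut43 replicate 1 and 759 and 1109 without Mut43 replicate 2. The lone library left in a line is assumed to vary like the other line. The cause of the gap between these fits was not tested. The mRNA calls ranged from 397 to 471 higher and from 812 to 1089 lower. The replicate block gave 0 and 0 percentile calls, 2163 higher and 1807 lower in summit reads, and 489 and 954 mRNA calls. Same-numbered mRNA libraries correlated at 0.024.

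The Stra8 promoter turned positive with background scaling (0.030), without WT replicate 1 (0.041) and without Mut43 replicate 1 (0.113), and was -0.19 without Mut43 replicate 2. Pou5f1 was -0.00505 after quantile normalization and -0.00505 with the height trend removed. None of these was called. The Plin4 mRNA change was 1.66 without WT replicate 1 and -5.26 without WT replicate 2. Of the other values for named regions, 414 lost their call and 4 gained one, and 127 for named mRNAs lost theirs. A minimum overlap of 50% gives no Jaccard value. Depth limits what can be seen in regions of 1 line, whose median was 24 to 32 reads.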
